A study of Caenorhabditis elegans with 2 samples.

Results

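The binding of ZTF-28, a zinc finger protein of Caenorhabditis elegans, was described at 38 genes of meiosis and chromosome segregation, out of 46890 annotated genes of which 19973 code for protein. The genes were taken from a list of names, drawn up with earlier results of these data known, and they comprise 15 genes of homologue pairing and synapsis, 14 of meiotic recombination and 9 of the kinetochore, centromere and spindle. Chromatin immunoprecipitation with sequencing (ChIP-seq) used an antibody against GFP on whole young adults of strain RW12281 collected at 63 hours, in which CRISPR had placed TY1, EGFP and 3xFLAG tags on the endogenous ztf-28 gene. The 2 biological replicates form 1 group, every animal carried the tag, and a control library was not analysed here, so no comparison between conditions was possible and no untagged background can be given. All cells of the animal contributed chromatin, so strong binding in few cells and weak binding in many cannot be told apart. Of the 38 genes, 37 are protein-coding. The symbol msh-4 belongs in the annotation to a pseudogene, while the worm homologue of the MSH4 mismatch repair protein is annotated as him-14.

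In meiosis, homologous chromosomes find each other through pairing centres, are held together by the synaptonemal complex that forms on cohesin-based chromosome axes, and are joined by crossovers made from programmed double-strand breaks. Kinetochores are the protein assemblies that attach chromosomes to spindle microtubules, and in C. elegans they form along the whole length of each chromosome. The gonad fills much of the adult hermaphrodite, and it holds nuclei in mitosis and in every stage of meiotic prophase.

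A gene was called bound if a peak summit of the authors' conservative list lay between 500 bp upstream and 200 bp downstream of any of its annotated transcript starts, its start window. The conservative list holds 1086 peaks that passed a threshold on the irreproducible discovery rate (IDR). The IDR is low where both replicates rank a peak high and rank it alike. Among the 38 genes, 5 were bound (13.2%), and among all protein-coding genes 598 were (2.99%). By class the counts were small. In the segregation class 4 of 9 genes were bound, namely czw-1, knl-1, knl-2 and bub-1. In the synapsis class 1 of 15 was bound, syp-4, and in the recombination class none of 14 was. Counts of 1 of 15 and 0 of 14 are too small to be told apart from the 2.99% of all protein-coding genes. All 4 bound segregation genes belong to the 5 genes of the kinetochore and centromere, and none of the 4 genes of the chromosomal passenger complex and the kinesins was bound. A count of 0 of 4 is likewise too small to be told apart from 2.99%. In a second list described below, 4 of 18 genes grouped as other kinetochore genes were bound (22.2%), the condensin gene hcp-6 among them. With the optimal list, which the authors made from both libraries and which called 3.00% of protein-coding genes, mre-11 was called as well, giving 6 of 38. With the list of 1 replicate alone, 2 of the 38 were called without replicate 1 (1.36% of protein-coding genes) and 1 without replicate 2 (1.17%). At an IDR of at most 0.001, 2 were called (1.14% of protein-coding genes). These are counts over small classes from 1 pair of replicates, and the difference between the classes was not tested.

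**Figure D1:**
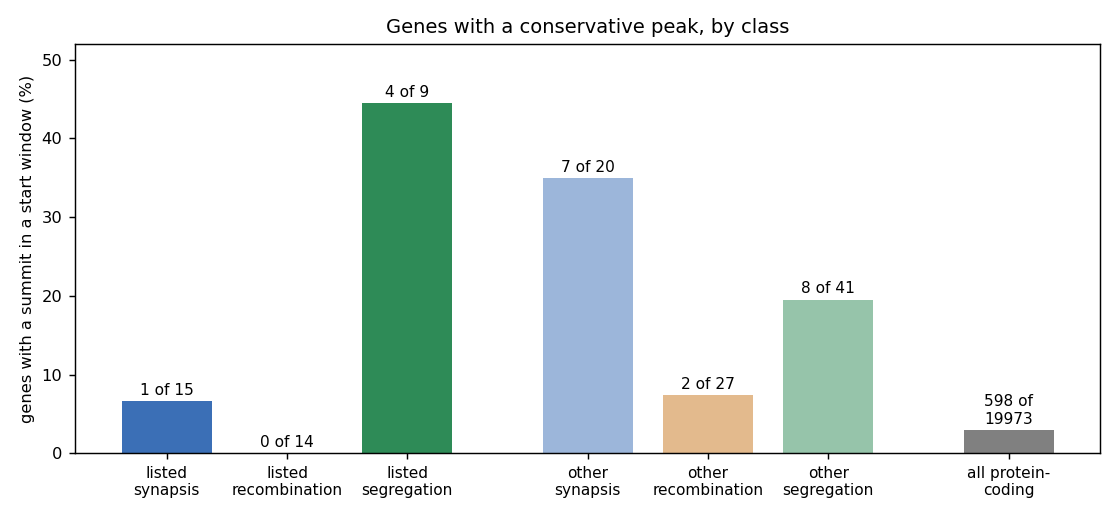
Share of genes with a conservative peak summit in a start window (vertical axis, percent), for the 38 listed genes by class, for 88 other genes of the same pathways by class, and for all protein-coding genes. The listed segregation class stands at 4 of 9, the listed recombination class at 0 of 14 and all protein-coding genes at 598 of 19973.

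Each peak carries a pooled signal value and a value for each replicate, on a scale that the sources used here do not give, so the values rank peaks within 1 list only. The first replicate value was equal to that in the own list of replicate 1 at 1077 of the 1086 conservative peaks, and the second to that in the own list of replicate 2 at 1080, to within 0.0001. At the 480 conservative peaks in start windows of protein-coding genes, the median pooled signal was 102.6 with quartiles of 85.6 and 133.4, and the median replicate values were 51.2 and 52.8. The number of reads behind a peak is unknown.

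The strongest peak of the 38 genes lay at czw-1, the homologue of ZW10, a kinetochore protein of the RZZ complex that brings dynein and checkpoint proteins to unattached kinetochores. This peak lay at chrIV:7947035-7947191 (ce11), between czw-1 and its divergent neighbour. Its pooled signal was 307.9 and its replicate values were 138.3 and 169.3, and it ranked 24 among the 1086 peaks. Both replicate values were above those of every other listed gene. The IDR was 2.93e-05, and czw-1 was the only listed gene called in the thresholded lists of both replicates taken alone. The summit had an offset of -296 bp from the nearest czw-1 start (negative is upstream), and an offset of -319 bp from the start of F20D12.12, an uncharacterised gene on the opposite strand. Which of these genes the peak belongs to cannot be read from its position. With a window from 250 bp upstream to 100 bp downstream czw-1 was not called.

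The next kinetochore peak lay at knl-1, which encodes the scaffold of the KMN network, the microtubule-binding core of the kinetochore. Its peak at chrIII:8250314-8250613 had a pooled signal of 104.6, with 39.3 and 55.7 in the replicates, and an IDR of 0.00312. The second replicate value was 1.42 times the first, which is above the upper quartile of 1.26 of this ratio over the 480 peaks. The summit had an offset of -168 bp and lay in the start window of no other gene. It ranked 425 in the list, and neither replicate alone called it.

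The sequences under the summits of czw-1 and knl-1 are shown because they differ in repeat content. Each window holds 151 bases centred on the summit, read in the direction of the gene, chrIV:7947046-7947196 on the minus strand for czw-1 and chrIII:8250389-8250539 on the plus strand for knl-1. Capitals mark a match to ACCGTA.
czw-1: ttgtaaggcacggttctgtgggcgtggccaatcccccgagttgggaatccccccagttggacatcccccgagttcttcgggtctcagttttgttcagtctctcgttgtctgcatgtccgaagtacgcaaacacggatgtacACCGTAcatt
knl-1: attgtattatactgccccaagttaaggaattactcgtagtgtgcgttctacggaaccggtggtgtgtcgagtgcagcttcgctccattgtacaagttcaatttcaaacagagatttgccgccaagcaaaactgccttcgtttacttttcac
In the czw-1 window the word TCCCCC occurred 3 times, at positions 32, 48 and 64 from the 5′ end, a spacing of 16 bases. Of the 24-base words in this window 50.8% occurred more than once in the genome, with up to 97 copies, and 64.9% of its bases are marked as repeats in the reference. It shared such words with 7 of the other 1085 conservative peaks, whose median pooled signal was 120.8 and whose highest was 192.6. In the knl-1 window all 24-base words occurred once in the genome, and it shared none with another peak. The sources used here do not give how reads that match several copies were counted, and the part of the copies in the czw-1 signal was not tested.

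The remaining bound kinetochore genes had signals below the median of 102.6. The gene knl-2 encodes a centromere protein needed to load the centromeric histone. Its peak at chrI:6460723-6461022 had a pooled signal of 85.2, with 51.1 and 44.8 in the replicates, and an IDR of 0.00231 and a rank of 754. Its summit lay nearly at the start itself, with an offset of -5 bp. The gene bub-1 encodes a spindle checkpoint kinase of the kinetochore. Its peak at chrI:7251558-7251857 had a pooled signal of 91.8, with 48.2 and 54.9 in the replicates, and an IDR of 0.00172 and a rank of 613. The summit had an offset of -233 bp from bub-1 and of -426 bp from lin-61, a chromatin gene on the opposite strand. Neither replicate alone called the peak at knl-2 or at bub-1.

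The fifth gene of this group, hcp-3, encodes the centromeric histone CENP-A, which KNL-2 loads. The strongest ranked peak in its start window had a pooled signal of 42.1, with 19.2 and 21.0 in the replicates, and an IDR of 0.279. A conservative peak with a signal of 189.5 lay 680 bp upstream of the hcp-3 start, outside the window. The gene hcp-4, the CENP-C homologue, was likewise not bound within 500 bp and had a conservative peak of signal 202.4 when the window was opened to 1000 bp upstream. Both distances were looked at after the counts were known.

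The other segregation genes had weaker peaks that did not pass. The gene bir-1, which encodes the survivin homologue of the chromosomal passenger complex, had a pooled signal of 58.6, with 28.5 and 26.975 in the replicates, and an IDR of 0.0846. The chromokinesin gene klp-19 had a pooled signal of 25.8, with 27.045 and 10.3 in the replicates, and an IDR of 0.542. Aurora B kinase gene air-2 had a pooled signal of 18.6, with replicate values of 2.85 and 19.4. The gene of the microtubule depolymerase KLP-7 had a pooled signal of 47.1, with replicate values of 29.1 and 6.84. In the segregation class the lowest replicate values among the bound genes, 39.3 and 44.8, lay above the highest among the 5 not bound, 29.1 and 26.975. The list was thresholded on how high and how alike the replicates ranked these peaks, so the separation is a description and no independent evidence.

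**Figure D2:**
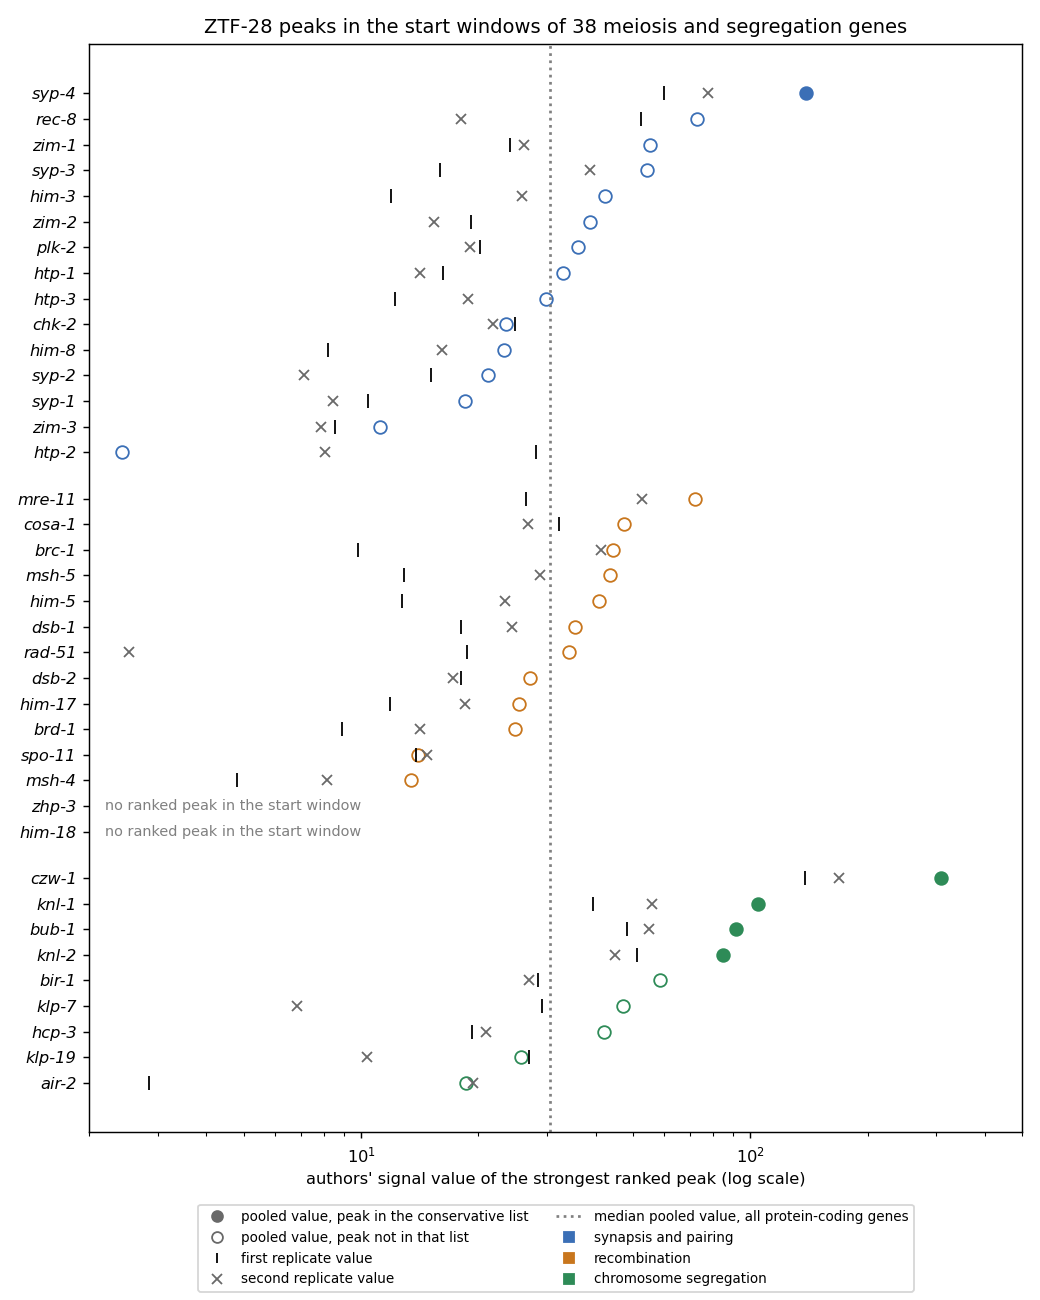
Signal of the strongest ranked peak in the start window of each listed gene (horizontal axis, log scale), with genes in rows by class. Circles are pooled values, filled where the gene has a conservative peak, and bars and crosses are the first and second replicate values. The 5 filled circles lie between 85.2 and 307.9, and the dotted line marks the median over all protein-coding genes with a ranked peak, 30.6.

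Of the 15 synapsis and pairing genes, syp-4 alone was bound. It encodes a protein of the central region of the synaptonemal complex. The peak at chrI:6847144-6847443 had a pooled signal of 138.9, with 59.8 and 77.7 in the replicates, and an IDR of 0.000515 and a rank of 190. Replicate 2 alone called it and replicate 1 alone did not. The summit had an offset of -217 bp from the syp-4 start, and it lay inside the small nuclear RNA gene H27M09.6, at an offset of 9 bp from the start of that gene. It also lay in the start windows of the non-coding gene H27M09.7, at 160 bp, and of the protein-coding gene H27M09.5, at -335 bp. Of the 24-base words at the summit 12.5% occurred more than once in the genome, with up to 9 copies, and 3 other conservative peaks shared some of them. With peaks in start windows of small RNA genes left out, syp-4 was not called, and none of the 15 was.

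The other 14 genes of synapsis and pairing all had at least 1 ranked peak in a start window, and none of these passed. The genes of the other central region proteins were low, with a pooled signal of 18.5 at syp-1 and 21.2 at syp-2, and 54.1 at syp-3, where the replicate values were 15.9 and 38.7. The axis proteins with a HORMA domain, which load before the central region, had 42.2 at him-3, 33.05 at htp-1, 29.9 at htp-3 and 2.42 at htp-2. At htp-2 the replicate values of 28.0 and 8.08 were above the pooled one. The meiotic cohesin gene rec-8 had the highest pooled signal of any listed gene not bound, 72.8. Its replicate values were far apart, at 52.4 and 18.02, and its IDR was 0.253.

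The pairing centre proteins are zinc finger proteins that bind 1 end of each chromosome. Of these, zim-1 had the lowest IDR among the genes of the class that were not bound, 0.135, and a pooled signal of 55.2, with 24.1 and 26.2 in the replicates. This summit had an offset of -288 bp from a start inside the gene, and 83.6% of the 24-base words there occurred more than once in the genome, with up to 11 copies. The genes zim-2, him-8 and zim-3 had pooled signals of 38.6, 23.3 and 11.2. The kinase CHK-2 triggers pairing and break formation, and its gene had a pooled signal of 23.5, with 24.8 and 21.7 in the replicates, and an IDR of 0.190. The polo-like kinase gene plk-2 had a pooled signal of 36.1. The zim genes and him-8 stand in a row on the same strand, and none of the row was bound.

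None of the 14 recombination genes was bound. The gene nearest to the threshold was mre-11, which encodes a nuclease that processes double-strand breaks. Its peak had a pooled signal of 72.2, with 26.5 and 52.7 in the replicates, and an IDR of 0.0266, where the highest IDR in the conservative list is 0.00999. Its summit had an offset of -192 bp. The crossover factor gene cosa-1 followed with an IDR of 0.0647 and a pooled signal of 47.2, with 32.2 and 26.7 in the replicates. The break formation gene dsb-1 had an IDR of 0.264 and a pooled signal of 35.5, with 17.98 and 24.3 in the replicates.

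The other recombination genes with a ranked peak had pooled signals of 13.4 to 44.3. The gene of the break-making enzyme SPO-11 had a pooled signal of 14.02, with 13.8 and 14.7 in the replicates. Its partners dsb-2, him-5 and him-17 had 27.2, 40.9 and 25.4. The strand exchange gene rad-51 had a pooled signal of 34.1, with replicate values of 18.6 and 2.52. The worm BRCA1 and BARD1 homologues, brc-1 and brd-1, had 44.3 and 24.8. The replicates disagreed at brc-1, at 9.78 and 41.4, and a conservative peak with a signal of 126.4 lay 805 bp from a brc-1 start, beyond the window. Among the crossover genes msh-5 had a pooled signal of 43.5, and no ranked peak lay in the windows of zhp-3 and him-18. The pseudogene with the symbol msh-4 had a ranked peak of signal 13.4, and him-14 had one of 21.5 with replicate values of 14.1 and 10.3.

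**Figure D3:**
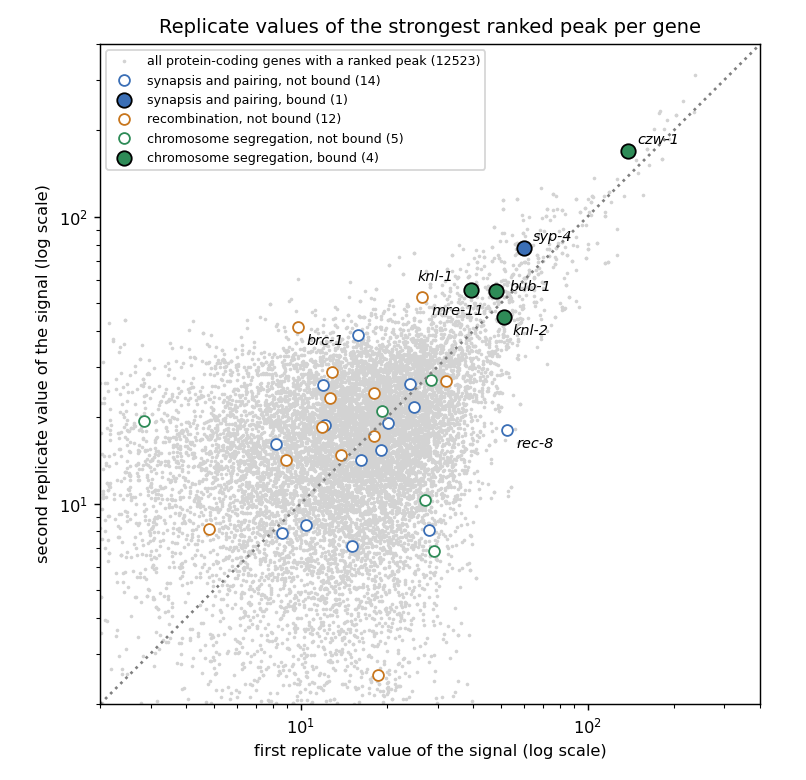
First against second replicate value (both axes logarithmic) of the strongest ranked peak in the start windows of each gene. Grey points are the 12523 protein-coding genes with a ranked peak and circles the listed genes, filled where bound. The bound genes lie near the dotted line of equal values, while rec-8 at 52.4 and 18.02 and brc-1 at 9.78 and 41.4 lie far from it. Some genes not bound also lie near it, such as chk-2 at 24.8 and 21.7 and spo-11 at 13.8 and 14.7. The conservative list was thresholded on how high and how alike the replicates ranked a peak, so the place of the bound genes is no independent evidence.

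Weak ranked peaks were common at the listed genes, since 36 of 38 had one, against 62.7% of all protein-coding genes. Over the 36, the median of the strongest pooled signal was 37.4, and over the protein-coding genes with a ranked peak it was 30.6. By class the medians were 58.6 for segregation, 34.8 for recombination over the 12 genes with a peak, and 33.05 for synapsis. The 31 genes with a ranked peak but no conservative one had a median of 34.1 and a range of 2.42 to 72.8. Ranked peaks include those that the authors did not pass, so a place in this list does not show binding.

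The summits at the bound genes all lay upstream of the start. The offsets ran from -296 bp at czw-1 to -5 bp at knl-2, and the median over all bound protein-coding genes was -198 bp. Of the 5 bound genes, 3 shared the summit with a start window of another protein-coding gene, and 137 of the 480 peaks lay in windows of 2 or more. Of the 38 genes, 17 have a neighbour upstream on the opposite strand within 1000 bp, and 10 have one on the same strand within 500 bp, as in operons. By chromosome, 3 of 8 listed genes were bound on chromosome I, against 4.59% of its protein-coding genes, 1 of 8 on chromosome III, against 4.81%, and 1 of 13 on chromosome IV, against 3.41%. None of 2 was bound on chromosome II, against 3.16%, and none of 7 on chromosome V, against 1.98%. The list has no gene on the X chromosome.

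**Figure D4:**
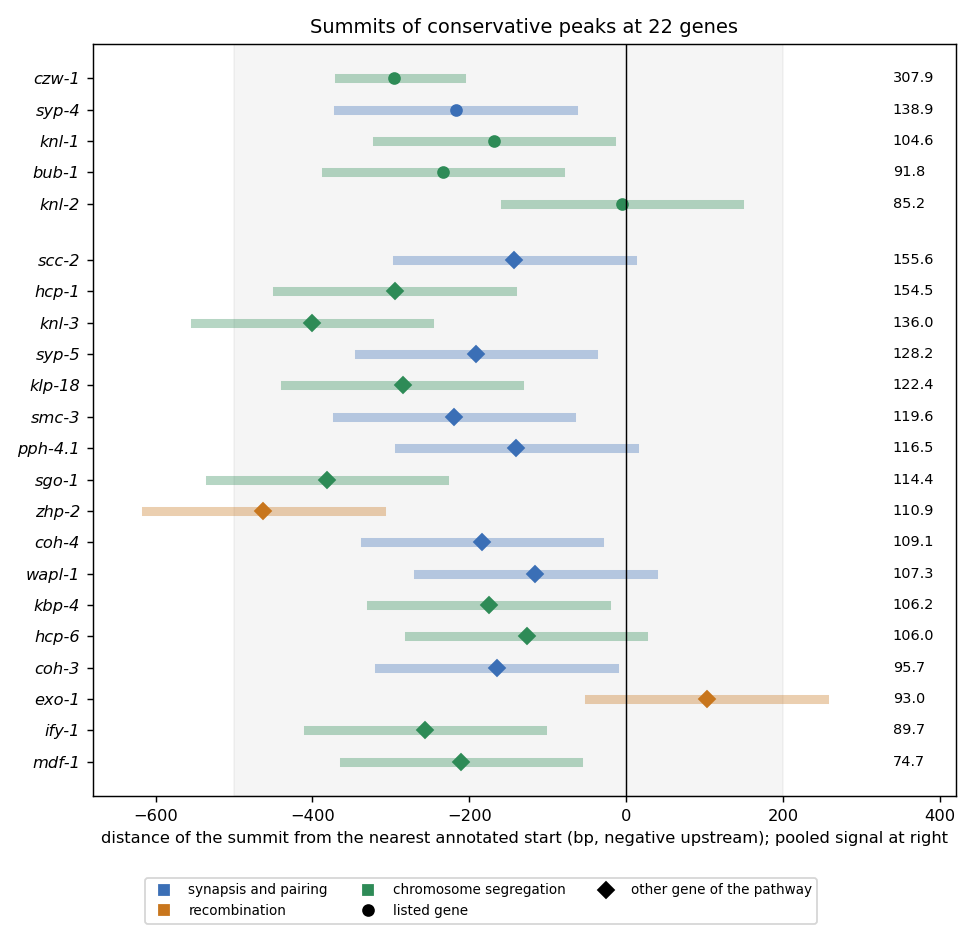
Position of the conservative peak at each bound gene relative to the nearest annotated start (horizontal axis, bp, negative upstream), with the 5 listed genes above and 17 other genes of the pathways below. Symbols mark summits, bars the peaks, the grey band the start window, and numbers at the right the pooled signal. The summits of all but exo-1, at 103 bp, lie upstream of the start.

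A further 88 genes of the same processes, a list also drawn up with earlier results of these data known and no independent evidence, were read in the same way, and 17 of them were bound (19.3%, against 2.99% of protein-coding genes). Without replicate 1 the count was 10 (1.36% of protein-coding genes) and without replicate 2 it was 6 (1.17%). It was 8 at an IDR of at most 0.001 (1.14% of protein-coding genes) and 10 with the narrower window (1.84%). In the synapsis class 7 of 20 were bound (35.0%), in the recombination class 2 of 27 (7.41%) and in the segregation class 8 of 41 (19.5%). Here the synapsis class had the highest share, where among the listed genes the segregation class had it. The synapsis classes of the lists are made up differently, so these shares are not like for like. The class here holds many genes of cohesin and its regulators, and the listed class only rec-8 of these. The pooled signals at the 17 bound genes ran from 74.7 at mdf-1 to 155.6 at scc-2 with a median of 110.9. None came near the 307.9 of czw-1. Of the 17 summits, 11 were shared with a start window of another protein-coding gene, among them those at wapl-1, shared with the histone variant gene htz-1, and ify-1, shared with the ribosomal protein gene rpl-22.

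The synapsis class of this list includes genes of cohesin, the ring complex that holds sister chromatids together, and of its regulators. Of these, scc-2, smc-3, wapl-1, coh-3 and coh-4 were bound, and scc-1, scc-3, him-1 and mau-2 were not. The pooled signals were 50.8 at scc-1 and 26.2 at him-1, and no ranked peak lay in the windows of scc-3 and mau-2. Of the bound ones, all but scc-2 shared the summit with another gene. The neighbours were nearer at smc-3, with -219 bp from smc-3, -9 bp from mib-1 and -105 bp from gly-9. At coh-4 the neighbour was nearer too, with -184 bp from coh-4 and -58 bp from pid-5. The cohesin loader gene scc-2 had a pooled signal of 155.6, with 73.3 and 80.5 in the replicates. Its summit had an offset of -143 bp from a start inside the gene. With only the outermost start of each gene used, scc-2 was not called. The ring subunit gene smc-3 had a pooled signal of 119.6, with 65.4 and 57.2, and the cohesin release gene wapl-1 had 107.3, with 51.1 and 52.3. The meiotic kleisin genes coh-4 and coh-3, partners of rec-8 in function, had 109.1 and 95.7. Replicate values were 58.0 and 56.4 at coh-4, and 40.8 and 59.2 at coh-3. Thus coh-3 and coh-4 were bound, and rec-8, with its 52.4 and 18.02, was not. Bound too were syp-5, a central region gene, at 128.2, and the phosphatase gene pph-4.1, which acts in pairing, at 116.5.

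In the segregation class the bound genes included hcp-1 at 154.5, a kinetochore gene of the CENP-F kind, knl-3 at 136.0, whose protein is in the KMN network with KNL-1, and kbp-4 at 106.2, an Ndc80 complex gene. They also included the checkpoint gene mdf-1 at 74.7, the securin gene ify-1 at 89.7, the shugoshin gene sgo-1 at 114.4, the condensin gene hcp-6 at 106.0 and klp-18, a kinesin gene of the oocyte spindle, at 122.4. The summit at kbp-4 had an offset of -175 bp, and one of 49 bp from rab-18. At knl-3 the offsets were -400 bp, and -242 bp from T10B5.3, and at ify-1 -257 bp, and -180 bp from rpl-22. In these cases the neighbour was nearer, while at hcp-6 and klp-18, also shared with a protein-coding gene, it was not. Which gene such a peak belongs to cannot be read from its position. In the recombination class the bound genes were the resection nuclease gene exo-1 at 93.0 and the crossover gene zhp-2 at 110.9. Both exo-1 and mdf-1 were missing from the optimal list. The summit at zhp-2 had an offset of -463 bp, and one of -93 bp from the nearer start of lotr-1.

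Sequences under the summits of scc-2, coh-3, coh-4, sgo-1 and klp-18 are shown because they hold words that were more frequent at the peaks than beside them, or resemble each other. The windows lie at chrII:255264-255414, chrV:14457182-14457332, chrV:4175749-4175899, chrIV:7796789-7796939 and chrIV:7039851-7040001. Those of scc-2 and coh-4 are read on the minus strand and those of coh-3, sgo-1 and klp-18 on the plus strand. For sgo-1 this is opposite to the gene. Capitals mark ACGCGC, GCGCGAAA and ACCGTA on either strand.
scc-2: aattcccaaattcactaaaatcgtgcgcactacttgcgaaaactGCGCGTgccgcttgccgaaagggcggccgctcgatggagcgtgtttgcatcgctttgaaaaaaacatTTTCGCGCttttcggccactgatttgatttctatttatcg
coh-3: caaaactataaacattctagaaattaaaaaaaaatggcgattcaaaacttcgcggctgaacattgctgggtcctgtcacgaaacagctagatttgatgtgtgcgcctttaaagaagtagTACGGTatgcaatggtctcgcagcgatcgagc
coh-4: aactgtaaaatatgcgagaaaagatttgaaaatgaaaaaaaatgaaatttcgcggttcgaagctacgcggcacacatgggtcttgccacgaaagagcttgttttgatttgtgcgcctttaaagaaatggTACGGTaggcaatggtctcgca
sgo-1: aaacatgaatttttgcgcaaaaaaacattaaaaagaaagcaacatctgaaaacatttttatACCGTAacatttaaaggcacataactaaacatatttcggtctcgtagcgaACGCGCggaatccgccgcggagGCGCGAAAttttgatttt
klp-18: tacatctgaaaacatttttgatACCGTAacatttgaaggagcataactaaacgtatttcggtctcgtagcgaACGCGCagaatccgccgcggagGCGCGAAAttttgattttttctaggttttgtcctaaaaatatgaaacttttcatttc
The windows of sgo-1 and klp-18 aligned with 105 identical bases in 111 columns (94.6%), and those of coh-3 and coh-4 with 107 in 139 (77.0%), the highest alignment scores of the 231 pairs among the 22 bound genes. The sgo-1 and klp-18 windows share 24-base words with each other and with no further conservative peak. Replicate values were 49.9 and 69.9 at sgo-1, and 69.3 and 59.3 at klp-18. The sgo-1 summit also has an offset of -328 bp to the pseudogene klp-10. Reads that match both copies cannot be assigned from these files.

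Words of 6 to 8 bases were counted under the summits of 407 other peaks at protein-coding genes and in windows beside them, on both strands, and the 5 of each length with the largest excess were kept. Of these 15 words, each stood at 1 or none of the 5 bound listed genes and at 0 to 8 of the 17 bound pathway genes. Among them, 11 stood at none of the 5, and 3, namely GACGCAGA, AGACGCAG and GAGACGCA, stood at none of the 5 and none of the 17, while 35, 34 and 32 of the 407 other peaks held them. The words in capitals above were picked after their counts were seen, as words that the printed windows hold: ACGCGC and GCGCGAAA are among the 15 but not the most frequent of their length, and ACCGTA was added to them. The 407 leave out peaks of the listed and pathway genes and those in start windows of small RNA genes. ACGCGC stood at 1 of the 5 bound listed genes (bub-1), 3 of the 31 not bound and 7 of the 17 bound pathway genes. It stood in 20.6% of the 407 other peaks, 1.60% of windows beside them and 3.60% of windows of the same length upstream of all protein-coding genes. GCGCGAAA, whose letters are a form of the E2F consensus known from mammals, stood at none of the 5, 2 of the 31 and 4 of the 17, namely scc-2, kbp-4, sgo-1 and klp-18. It stood in 7.62% of the other peaks, 0.246% of windows beside them and 0.701% of upstream windows. ACCGTA stood at 1 of the 5 (czw-1), 5 of the 31 and 6 of the 17, in 19.2% of the other peaks, in 3.81% beside them and in 4.72% upstream. ACGCGC and GCGCGAAA can overlap by their shared letters, so they are not independent counts. Both were kept for their excess over the windows beside these same 407 peaks, so that excess is no independent evidence.

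Base composition at the bound listed genes was near that of other peaks. The median GC content was 47.0% at the 5 bound genes, with a range of 39.1% to 56.3%, and 45.0% at the 407 other peaks. It was 37.7% at the strongest ranked peaks of the 31 genes not bound. CG dinucleotides in the 151 bases numbered a median of 9 at the 5 bound genes, 8 at the 31 not bound and 10 at the other peaks, with ranges that overlap throughout.

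**Figure D5:**
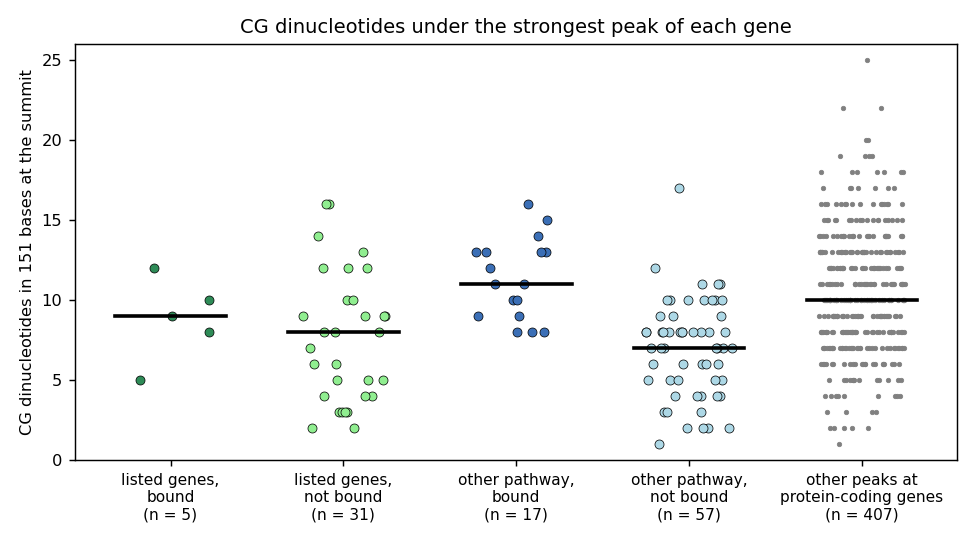
Number of CG dinucleotides in 151 bases at the summit (vertical axis) for listed genes with and without a conservative peak, other pathway genes with and without one, and other conservative peaks at protein-coding genes. Points are genes or peaks and bars medians, which are 9, 8, 11, 7 and 10 from left to right.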

How the data were processed

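ChIP-seq peak lists of 2 biological replicates were read on ce11, the assembly per the labels. The sources used here do not give the aligner, peak caller, read depth or counting of multiply mapped reads. The signal of each peak is the authors' value, pooled or for 1 replicate. The deposited score is a scaled IDR, and the authors' ranked lists give the −log10 of the IDR, from which IDR values were computed here. The conservative list was the main one, and the ranked list described genes without a passing peak. Its columns do not name the replicates, so values are given as first and second.

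Starts came from Ensembl release 115, and bases and missing gene symbols from RefSeq. The assignment of summits to genes was tested on simulated summits. Copies of 24-base words were counted in the genome on both strands. Windows beside a peak had the same length, and alignments were local (Biopython 1.88). Other tools were Python 3.11.15, pandas 2.3.3, NumPy 2.4.6 and matplotlib 3.10.9.

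The genes and lists were chosen with earlier results of these data known, so counts are described and no test was made. Named were all listed genes, the 3 with the lowest IDR per class among those not bound, bound genes of the pathway list, and genes sharing a summit. The far peaks at hcp-3, hcp-4, brc-1, rod-1 and lab-1, and him-14, were named after their values were seen. Outside these rules, scc-1, scc-3, him-1 and mau-2, which were not bound, were named beside the bound genes of cohesin and its regulators.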

Additional observations from a re-analysis of the deposited data

How the results depend on the processing

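With the thresholded list of 1 replicate, 1 to 2 listed genes were bound (czw-1 in both, syp-4 in replicate 2), 1 in the segregation class either way, 0 to 1 in the synapsis class, and 6 to 10 of the other pathway genes. Calls over all protein-coding genes fell too, to 1.17% without replicate 2 and 1.36% without replicate 1. At an IDR of at most 0.001, 2 listed genes (czw-1, syp-4), 1 segregation gene and 8 other pathway genes were left, with 1.14% of protein-coding genes. The recombination count became 1 with a window from 1000 bp upstream (brc-1) and 1 with the optimal list (mre-11). With the wider window 7 listed genes and 20 other pathway genes were bound (3.87% of protein-coding genes). The median pooled signal of the peaks at listed genes was then 126.4, against 104.6. It was 98.2 with the optimal list. A window from 250 bp upstream to 100 bp downstream lost czw-1, leaving 4 listed genes and 10 other pathway genes (1.84%). Without peaks in windows of small RNA genes, an alternative added after seeing the data, 0 synapsis genes were bound. Any overlap of peak and window, or the outermost start only, left the same 5 listed genes. The outermost start only left 16 other pathway genes, without scc-2 (2.76% of protein-coding genes). No paired analysis was possible because there is 1 group. With 2 replicates and no read counts, counting error cannot be given.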
